A study of Mus musculus with 22 samples.

Results

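The sites described here are the stretches of the mouse genome at which an open-chromatin peak was called in every one of 12 ATAC-seq samples of macrophages. Peaks of all samples that shared at least 1 bp were merged into 127890 sites, and 56120 of them (43.9%) held a peak in all 12 samples. The other 71770 sites (56.1%) lacked a peak in at least 1 sample. The sites were selected on the presence of a called peak alone, so presence, width and the level of the score are given as descriptions with no test.

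In ATAC-seq a transposase inserts sequencing adapters into DNA that is not covered by nucleosomes, so a peak marks a promoter, enhancer or other element that proteins can reach. Promoters rich in CpG dinucleotides are held open in most cell types by general transcription factors. Enhancers are more often opened by lineage factors, which in macrophages include PU.1, C/EBP and AP-1 proteins. Lipopolysaccharide (LPS), a part of the outer membrane of Gram-negative bacteria, acts through Toll-like receptor 4 on NF-kB, AP-1 and interferon regulatory factors. Lactic acid (LA) is the end product of glycolysis and carries both lactate and protons.

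The samples were bone marrow-derived macrophages of C57/BL6 mice. All groups shared 7 days of differentiation in medium conditioned by L929 fibroblasts, the source of macrophage growth factor, and all cells were replated a day before treatment. The 4 groups of 3 ATAC-seq samples were LPS+LA (100 ng/ml LPS with 10 mM L-(+)-lactic acid), LA (lactic acid, its dose without LPS not being stated), LPS (100 ng/ml) and control (no treatment). Exposure lasted 3 h, and each sample was made from 50000 cells. RNA-seq was done in 2 libraries of each of the same 4 conditions, and 2 libraries of LPS with HCl entered no comparison but only the shared estimate of spread, the mean TPM of a gene over the 10 libraries and the marker sums. The cells are a bulk culture grown from marrow. The labels do not tie replicates to separate mice or cultures, and each p-value therefore reflects variation among these preparations alone, part of which may be technical.

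Samples differed in missing peaks, lane and RNA markers. ATAC-seq sample 1 of LPS+LA lacked a peak at 1262 of the 5634 sites that were missing in exactly 1 sample, and without it 57382 sites had a peak in each of the other 11 samples. Other samples lacked 60 to 950 of these sites, with 950 in LA sample 1, 797 in LPS sample 3 and 726 in control sample 2. Without LA sample 1 the number of sites with a peak in each remaining sample was 57070. Per the file headers, LPS+LA and LA were sequenced in lane 6, whereas LPS and control were in lane 5. LPS+LA against LA and LPS against control therefore lie within a lane, and in LPS+LA against LPS and LA against control the lane and lactic acid cannot be told apart. In the RNA the 8 neuron markers summed to 23.9 TPM in replicate 2 of LPS+HCl and 20.4 TPM in replicate 1 of control, against 0.31 to 2.69 TPM in the other libraries. The 8 fibroblast markers were also highest in these libraries, at 5.57 and 5.63 TPM, against 0.67 to 1.83 TPM in the others. The 8 T cell markers summed to 7.76 to 14.7 TPM in all treated libraries and to 45.2 and 54.5 TPM in control.

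The letters of 8 promoters named below are shown as chosen examples. Ints3 had one of the highest scores in every sample, Rplp0 was steady, Gbp5 and Acod1 were higher with LPS, and Gja1 and Ctla2a were higher with lactic acid. Heg1 was lower in LPS+LA than in LPS, and Alb, a liver gene, had no site. Each line gives the 250 bases before the gene start from RefSeq, build GRCm38.p6, 5′ to 3′ on the gene's strand. The windows are chr3:90433637-90433886 (minus strand) for Ints3, chr5:115559217-115559466 (plus) for Rplp0, chr3:142496684-142496933 (plus) for Gbp5 and chr14:103046762-103047011 (plus) for Acod1. They are chr10:56377050-56377299 (plus) for Gja1, chr13:60936567-60936816 (minus) for Ctla2a, chr16:33684216-33684465 (plus) for Heg1 and chr5:90460620-90460869 (plus) for Alb. Capitals mark every match on either strand to any of 12 motifs. The core promoter motifs searched were TATAAA for the TATA box, then CCAAT for the CCAAT box, and for the GC box the letters GGGCGG were used. ETS factors were represented by CCGGAAG. PU.1, itself an ETS factor, was represented by GAGGAAGT, which overlaps the ETS motif in its middle letters. Cyclic AMP response elements (CRE) were searched as TGACGTCA. AP-1 sites were searched as TGANTCA with any base at N. NRF1 sites were searched as GCGCATGCG. YY1 sites were searched as AAGATGGCG. NF-kB sites were searched as GGANTTTCC. Interferon-stimulated response elements (ISRE) were searched as GAAANNGAA. Part of the CTCF motif was searched as AGGGGGC.
Ints3: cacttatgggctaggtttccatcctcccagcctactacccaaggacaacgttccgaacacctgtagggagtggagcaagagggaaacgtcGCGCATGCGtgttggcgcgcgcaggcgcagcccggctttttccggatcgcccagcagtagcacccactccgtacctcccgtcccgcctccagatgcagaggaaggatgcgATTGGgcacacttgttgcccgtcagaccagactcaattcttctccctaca
Rplp0: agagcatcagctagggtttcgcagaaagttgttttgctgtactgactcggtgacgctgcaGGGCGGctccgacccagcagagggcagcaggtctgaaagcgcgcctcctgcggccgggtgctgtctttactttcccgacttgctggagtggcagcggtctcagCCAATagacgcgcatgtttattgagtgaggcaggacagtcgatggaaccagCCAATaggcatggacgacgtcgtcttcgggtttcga
Gbp5: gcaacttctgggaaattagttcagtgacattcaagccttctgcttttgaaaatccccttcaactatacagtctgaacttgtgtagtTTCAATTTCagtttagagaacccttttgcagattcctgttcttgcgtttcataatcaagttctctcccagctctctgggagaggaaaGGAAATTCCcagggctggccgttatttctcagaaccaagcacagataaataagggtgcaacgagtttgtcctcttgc
Acod1: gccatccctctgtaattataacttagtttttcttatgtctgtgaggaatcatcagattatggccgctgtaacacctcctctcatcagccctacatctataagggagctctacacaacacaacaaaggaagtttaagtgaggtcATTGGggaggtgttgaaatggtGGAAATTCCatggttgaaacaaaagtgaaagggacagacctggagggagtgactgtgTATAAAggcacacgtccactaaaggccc
Gja1: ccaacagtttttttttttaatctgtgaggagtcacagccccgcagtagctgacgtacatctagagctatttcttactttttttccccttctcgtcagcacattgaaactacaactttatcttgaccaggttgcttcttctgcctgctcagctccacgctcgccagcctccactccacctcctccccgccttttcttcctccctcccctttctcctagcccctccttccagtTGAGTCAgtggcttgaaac
Ctla2a: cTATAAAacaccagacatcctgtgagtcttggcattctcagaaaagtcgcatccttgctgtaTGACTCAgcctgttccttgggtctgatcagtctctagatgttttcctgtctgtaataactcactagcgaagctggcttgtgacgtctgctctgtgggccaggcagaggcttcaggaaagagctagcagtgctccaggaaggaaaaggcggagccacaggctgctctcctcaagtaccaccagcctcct
Heg1: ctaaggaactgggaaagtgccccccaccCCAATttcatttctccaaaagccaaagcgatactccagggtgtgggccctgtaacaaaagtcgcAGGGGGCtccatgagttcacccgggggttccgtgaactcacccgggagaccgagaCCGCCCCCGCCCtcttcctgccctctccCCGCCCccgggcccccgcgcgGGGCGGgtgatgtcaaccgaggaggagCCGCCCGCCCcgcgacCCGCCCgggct
Alb: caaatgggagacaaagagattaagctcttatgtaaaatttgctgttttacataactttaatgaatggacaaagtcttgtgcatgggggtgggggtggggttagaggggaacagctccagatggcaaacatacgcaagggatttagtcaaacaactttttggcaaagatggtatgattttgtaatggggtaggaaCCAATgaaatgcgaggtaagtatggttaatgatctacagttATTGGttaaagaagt
The first 7 windows lay wholly inside a site with a peak in all 12 samples. Ints3 held NRF1 and CCAAT letters, and Rplp0 held a GC box and 2 CCAAT boxes. Gbp5 and Acod1 each held NF-kB letters, with ISRE letters in Gbp5 and a TATA box in Acod1. Gja1 and Ctla2a each held AP-1 letters, and Heg1 held 7 GC boxes. A match is a description of these letters and not a bound site. The examples are not typical of risen sites. Among all windows with a risen site, NF-kB letters stood in 3.56% in LPS against control. AP-1 letters stood in 9.50% in LPS+LA against LPS and 13.6% in LA against control.

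Sites with a peak in all 12 samples were wide and strong. Their merged width had a median of 608 bp (quartiles 483 and 826, range 203 to 5085 bp), and the median peak at a site was 457 bp wide. Sites just outside the rule, with a peak in 11 samples, had a median merged width of 441 bp and a median peak of 297 bp. The score is the authors' own value for each peak, and its rank among all peaks of its own sample had a median percentile of 64.7 (quartiles 46.6 and 82.2) at sites with 12 samples. At sites with 11 samples that percentile was 28.3 (21.8 and 35.6). Of the 56120 sites, 49070 (87.4%) had exactly 1 peak in each sample, and 28640 (51.0%) had all their peaks in the top 50% of each list. A weak tail was present as well, since 2725 sites (4.86%) had a peak in the lowest 5% of some list. Among the sites with 11 samples the missing sample was an LA sample at 2012, an LPS+LA sample at 1409, an LPS sample at 1087 and a control sample at 1126.

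**Figure D1:**
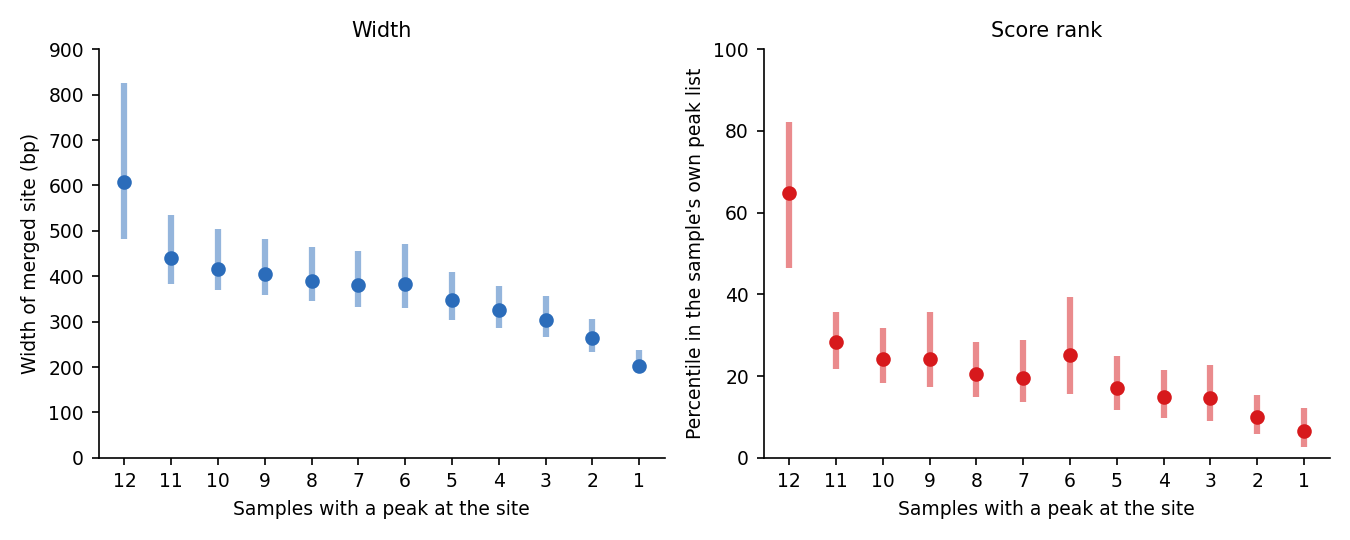
Width of merged sites in bp (left) and percentile of the score within a sample's own peak list (right), by the number of samples with a peak; points are medians and bars run from the first to the last quartile over sites. Sites with 12 samples stand at 608 bp and the 64.7th percentile, above those with 11 samples at 441 bp and the 28.3rd percentile.

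The widest sites lay on the mitochondrial genome and at a ribosomal RNA copy. The 2 widest covered chrM:78-5162 (5085 bp), with the mitochondrial ribosomal RNA genes, ND1 and ND2, and chrM:10954-15815, with ND4, ND5 and cytochrome b. The third covered Rn18s-rs5, an 18S ribosomal RNA sequence, at chr17:39843070-39846806 (3737 bp). Its score percentile was 84.4, 81.4 and 82.8 in LPS+LA and 84.4, 83.9 and 84.5 in LA, against 93.9, 93.2 and 95.1 in LPS and 92.6, 88.1 and 88.8 in control. It was thus lower in all 6 samples with lactic acid, which are also those of lane 6, and the lane and lactic acid cannot be told apart. Reads of such multicopy sequences cannot be placed uniquely. All 4 mitochondrial sites and 3 of 16 sites on the Y chromosome belonged to the 56120, against 39.5% of the sites on X and 40.6% to 47.7% on single autosomes.

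The shared sites took up most of each peak list. They held 70.1%, 59.0% and 58.9% of the peaks of the LPS+LA samples and 76.9%, 73.3% and 75.3% of those of the LA samples. In the LPS samples the share was 56.8%, 61.5% and 66.6%, and in the control samples 66.5%, 72.4% and 67.4%. The share was therefore highest in LA, which did not overlap control, and the LPS and LPS+LA groups overlapped each other. LA averaged 75.2% ± 1.81, against 68.8% ± 3.22 in control (SD, n = 3 each), and LPS+LA averaged 62.7% ± 6.42. Each shared site holds a peak of every sample by the rule, so the share follows the length of the list and no test of it is given here. LPS+LA samples had 94807 ± 7999 peaks, against 78813 ± 2073 in LA (SD, n = 3 each). Peak lists hold no read counts, so the depth of each ATAC-seq sample is unknown. The median score was 43.0 to 74.7 at shared sites and 8.07 to 11.5 at other sites across the 12 samples.

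Shared sites were concentrated at promoters. A promoter is taken here as the RefSeq window from 250 bases before to 50 bases after a gene start. Of the shared sites 9921 (17.7%) overlapped such a window, against 2.13% of the other sites, and 86.7% of all sites at promoters were shared. Sites within gene bounds numbered 30937 (55.1%), of which class 40.1% was shared. A further 8884 shared sites lay within 10 kb of a gene, 5401 lay 10 to 50 kb away and 977 lay farther. Promoter sites were wider, at a median of 934 bp against 570 bp within gene bounds. From here on each site's score is given as its percentile among the same 56120 sites in its sample, from 0 for the weakest to 100 for the strongest. On that scale promoter sites had a median of 78.3 (quartiles 57.8 and 91.0) and sites within gene bounds 43.3 (23.9 and 66.5). The promoter median lay between 77.0 and 80.3 in each of the 12 samples.

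The RNA level of a gene went with a shared site at its promoter. Of 17492 protein-coding genes with a window, 9458 (54.1%) had a shared site there. The share was 2.99% of 4910 genes that the RNA table does not list, 28.7% of 3825 genes under 1 TPM, 87.5% at 1 to 10 TPM, 96.5% at 10 to 100 TPM and 96.8% of 1295 genes at 100 TPM or more. Genes with a shared promoter site had a median of 17.6 TPM (mean over libraries, quartiles 5.18 and 52.0). Genes with another site there had 0.108 TPM, and listed genes with no site had 0.043 TPM. TPM is scaled for gene length, and cells in a bulk culture are averaged, so fewer cells of a type and less RNA per cell cannot be told apart.

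**Figure D2:**
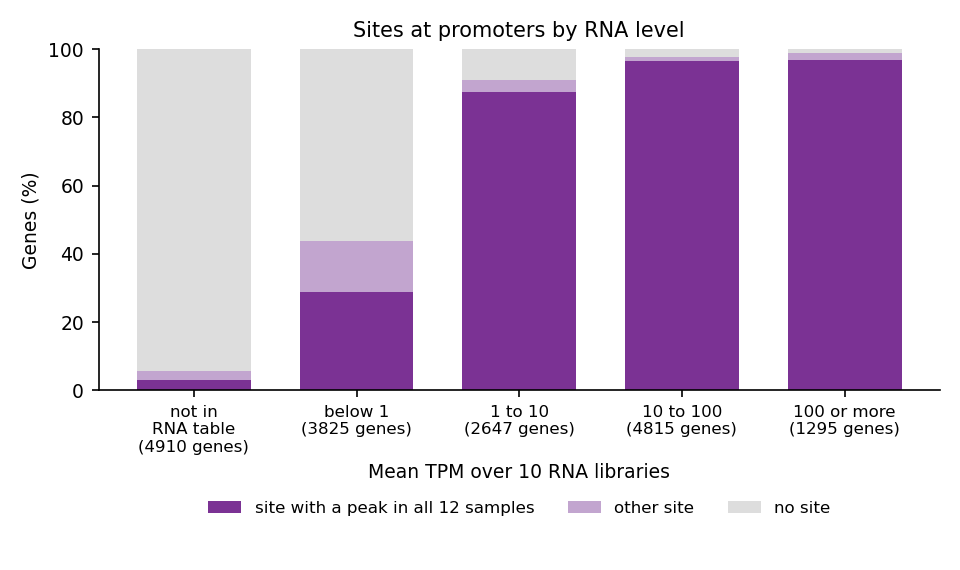
Share of protein-coding genes (%) whose promoter window overlaps a site with a peak in all 12 samples, another site or no site, by the mean TPM of the gene over 10 RNA libraries. The shared-site share is 2.99% for genes not in the RNA table and 96.8% for genes at 100 TPM or more.

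The letters of promoters with a shared site differed from those of the rest. Their windows were 62.0% G or C with 22 CpG dinucleotides in 300 bases (medians), against 48.7% and 4 in windows with no site. A GC box stood in 67.9% of windows with a shared site, 19.1% of those with none and 46.2% of all. ETS letters, bound by factors such as GABPA and PU.1, stood in 19.7%, 2.59% and 11.6%. NRF1 letters, named for a factor of mitochondrial genes, stood in 4.08%, 0.451% and 2.35%, and YY1 letters in 3.35%, 0.187% and 1.83%. These 4 motifs were all richer in G and C, as were the windows. The TATA box went the other way, at 6.08% of windows with a shared site, 20.8% with none and 12.6% of all. AP-1 letters did too, at 4.56%, 9.50% and 6.99%. CCAAT letters (38.3%, 39.2% and 38.2%) and NF-kB letters (1.26%, 1.22% and 1.28%) had close to the same share in each class. PU.1 letters stood in 3.37%, 2.76% and 3.13%, CRE letters in 3.48%, 0.870% and 2.23%, ISRE letters in 6.94%, 9.49% and 8.15% and the CTCF part in 17.2%, 7.22% and 12.9%.

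Shared sites were counted at marker genes of macrophages and of other cell types. Of 9 macrophage markers with a promoter window 7 (77.8%) had a shared site, and 15 of 16 had a shared site within 1 kb of the gene bounds. Of all protein-coding genes with a window 54.1% had a shared promoter site, as did 89.5% of those tested for RNA and 96.8% of those at 100 TPM or more. Inside the gene bounds alone, 11592 protein-coding genes among the 12213 genes tested for RNA had a shared site. The macrophage markers had a median of 396 TPM and summed to 27972 to 37242 TPM in each library. Of the markers of other cells 1 of 5 T cell windows, 1 of 4 B cell windows and 2 of 7 neutrophil windows held a shared site. None of 6 erythroid, 4 neuron, 6 liver or 3 fibroblast windows did. The median TPM of each list of other cells was under 1, and 28.7% of all genes under 1 TPM had a shared promoter site. Within 1 kb of the gene bounds, a wider search, a shared site was found for 5 of 8 B cell, 5 of 8 neutrophil and 4 of 8 T cell markers, for 3 of 8 each of the erythroid, liver and fibroblast lists and for 2 of 8 neuron markers. Among the liver markers Alb, whose letters are given above, had no site of any kind at its promoter. The strongest shared site in or within 1 kb of Csf1r, the receptor for macrophage colony-stimulating factor, was at percentile 88.4, 84.2 and 88.8 in LPS+LA, 96.5, 95.8 and 95.9 in LA, 94.5, 94.1 and 94.3 in LPS and 97.3, 98.2 and 98.3 in control. Spi1, which encodes PU.1, had its strongest site at a mean of 86.0 ± 2.22 in LPS+LA, 86.2 ± 0.767 in LA, 91.98 ± 1.07 in LPS and 89.7 ± 1.20 in control (SD, n = 3 each). Both genes thus had a strong site in every group. Neither has a promoter window, so the value is that of the strongest of the gene's sites and is raised by that choice. Itgam, an integrin chain of myeloid cells, was read at its promoter site alone, a different measure. That site lay between 17.6 and 41.5 in all 12 samples.

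Some promoter sites kept nearly the same percentile in every sample. The 8 promoter sites with the highest mean percentile were those of Mxd4, Hjurp, Gm34121, B3gntl1, Aktip, Ints3, Prkaca and Map3k3, each at 99.9 or higher in every sample. They were chosen for that mean on a scale that ends at 100, so their steadiness follows from the choice. The Gm34121 site also overlapped the promoter of Herc2. Ints3 encodes a subunit of the Integrator complex, and its RNA stood at only 13.8 to 34.5 TPM. At Rplp0, which encodes a ribosomal stalk protein, the percentile was 96.0, 94.8 and 95.6 in LPS+LA, 94.6, 96.6 and 96.5 in LA, 96.4, 97.0 and 97.2 in LPS and 96.2, 96.3 and 96.4 in control. At Hprt, a purine salvage enzyme, it was 82.9, 78.7 and 79.7 in LPS+LA, 81.6, 83.02 and 83.7 in LA, 79.1, 82.0 and 83.9 in LPS and 82.4, 81.3 and 80.7 in control. Neither gene's shift passed the test in any comparison. Other genes of the list expressed in most cells did shift by a few points: of its 8 promoter sites Polr2a and Tbp rose (4.13 and 4.99 points) and Gapdh fell (-2.76 points) in LPS+LA against LPS, Ppia fell in LPS against control (-2.86 points) and Polr2a rose in LA against control (4.03 points). A shift that misses the threshold is not shown to be absent. Across all shared sites 17695 (31.5%) had no called shift in any of the 4 comparisons, at 51.9% of promoter sites against 27.2% elsewhere. The 4 group means lay within 5 points of each other at 8859 sites, which was 44.2% of promoter sites and 9.69% of the rest.

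Shifts between groups were tested at every site by limma on the percentiles, two-sided, with Benjamini-Hochberg adjustment over all 56120 sites and a threshold of 0.05. A shift is the difference of group means in percentile points, and its median standard error was 3.85 points. Presence in every sample was required, so a site that lost its peak in any sample is outside these counts. In LPS+LA against LPS 16671 sites (29.7%) were called, 8413 higher (15.0%) and 8258 lower (14.7%). Between LPS+LA and LA 18846 (33.6%) were called, 8748 higher (15.6%) and 10098 lower (18.0%). In LPS against control 27086 (48.3%) were called, 12347 higher (22.0%) and 14739 lower (26.3%). In LA against control 18230 (32.5%) were called, with 9154 higher (16.3%) and 9076 lower (16.2%). The 3 samples of one group lay wholly above or below the 3 of the other at 42.0% of all sites in LPS+LA against LPS, 42.3% in LPS+LA against LA, 55.3% in LPS against control and 43.2% in LA against control. Without LPS+LA sample 1 the counts of called sites were 13884 for LPS+LA against LPS and 16792 for LPS+LA against LA. The drop was not particular to that sample. Leaving out any other single sample of the groups compared gave 13706 to 14865 and 15934 to 17204 called sites in these comparisons.

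Most called shifts were modest. Their median size was 14.2 points in LPS+LA against LPS, 14.9 in LPS+LA against LA, 17.0 in LPS against control and 14.6 in LA against control. Shifts of 30 points or more that passed the test were mostly rises: 629 of 920 in LPS+LA against LPS, 1292 of 1701 in LPS+LA against LA, 3028 of 4839 in LPS against control and 1217 of 1438 in LA against control. The single largest rise was 92.4 points and the largest fall -76.6 points, both in LPS against control. Percentiles have the same mean in every sample, so rises and falls must balance in sum. On the log2 score with no scaling between samples, LPS+LA against LA gave 9410 higher and 1054 lower, and LA against control gave 2325 higher and 14727 lower. The order of the counts also turned on that score, with 15825 sites called in LPS against control and 17052 in LA against control. The median score at shared sites was 43.0 to 50.1 in LA, against 52.8 to 67.3 in control, and its part in that split was not tested.

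Promoter sites shifted less often than sites elsewhere. The called share was 21.1% of promoter sites and 31.8% of sites within gene bounds in LPS+LA against LPS. It was 18.9% and 36.6% in LPS+LA against LA, 28.6% and 52.4% in LPS against control, and 17.4% and 35.5% in LA against control. The promoter share was also the lower one in each of 5 ranges of mean percentile in all 4 comparisons. In the range of 40 to 60 it was 41.1% of promoter sites and 60.9% of other sites in LPS against control. Where promoter sites did shift, falls outnumbered rises in each comparison. There were 1979 falls and 861 rises in LPS against control, and in LPS+LA against LPS 1254 fell and 844 rose. In LPS+LA against LA 1304 fell and 574 rose, and in LA against control 1139 fell and 589 rose. The median shift over all promoter sites lay between -0.64 points in LPS+LA against LA and -0.37 points in LPS+LA against LPS. Promoter sites stood at a median of 78.3 on a scale that ends at 100, and a percentile is relative to all other shared sites. A fall is therefore a fall in rank, and the part of the scale in this split was not tested.

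**Figure D3:**
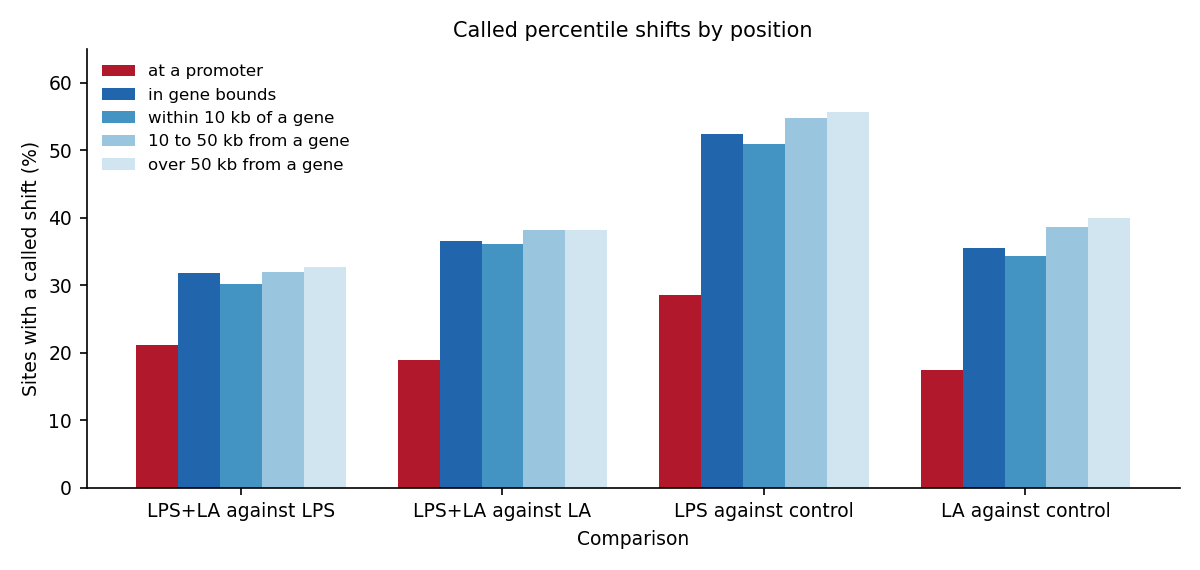
Share of shared sites with a called percentile shift (%, limma, adjusted p below 0.05) by comparison and by position relative to genes. The promoter bar is the lowest of 5 in each comparison, at 28.6% in LPS against control where sites within gene bounds stand at 52.4%.

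The 4 largest promoter rises without overlap in LPS against control were at Tmigd1, Oasl1, Acod1 and Gbp5, and in LPS+LA against LA they were at Oasl1, Gbp5, Il4i1 and Nhsl1. At Oasl1, an interferon-induced relative of the oligoadenylate synthetases (chr5:114922843-114923654), the percentile was 85.8, 84.7 and 82.7 in LPS+LA, 8.72, 4.43 and 6.04 in LA, 93.3, 90.6 and 90.0 in LPS and 12.5, 9.54 and 9.72 in control. Every sample with LPS thus stood near the top and every sample without it near the bottom. The shift was 80.7 points in LPS against control (limma adjusted p 9.52e-17) and 78.0 points in LPS+LA against LA (1.87e-15). Its RNA was 383 and 438 TPM in LPS+LA, 5.26 and 14.1 TPM in LA, 1188 and 1192 TPM in LPS and 6.44 and 8.60 TPM in control. Gbp5, a guanylate-binding protein of antibacterial defence (chr3:142496512-142497744, letters above), was at 78.4, 77.9 and 76.5 in LPS+LA, 6.53, 11.1 and 4.62 in LA, 80.1, 79.5 and 77.1 in LPS and 7.03, 6.72 and 7.23 in control. The LPS+LA and LPS samples differed by 1.29 points in their means (adjusted p 0.842), whereas Gbp5 RNA was lower in LPS+LA, at 358 and 401 TPM against 877 and 945 TPM in LPS. Acod1, the enzyme that makes itaconate (chr14:103046452-103047646, letters above), was at 85.7, 81.8 and 85.1 in LPS+LA, 34.6, 14.6 and 12.1 in LA, 84.5, 84.9 and 86.3 in LPS and 17.2, 8.64 and 4.09 in control. Its RNA was likewise lower in LPS+LA than in LPS, at 2604 and 2564 TPM against 7045 and 7227 TPM, with a site shift of -1.01 points (adjusted p 0.9).

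Other sites rose with LPS in the same range. Il4i1, an L-amino acid oxidase, rose by 68.6 points in LPS against control and by 70.1 points in LPS+LA against LA. Tmigd1, an immunoglobulin-domain membrane protein, rose by 80.9 and 64.6 points, although its RNA was 0 in all libraries but LPS, where it was 0.37 and 0.84 TPM. Nhsl1 rose by 64.3 and 67.4 points, with RNA between 0.38 and 1.31 TPM throughout. A large site shift was therefore seen at a gene with hardly any RNA too. At Nos2, inducible nitric oxide synthase, the strongest site within 1 kb of the gene (chr11:78920381-78921016) was at 71.2, 68.8 and 67.1 in LPS+LA, 54.5, 43.2 and 40.9 in LA, 81.7, 81.5 and 86.5 in LPS and 35.4, 43.5 and 41.0 in control. It was lower in LPS+LA than in LPS by 14.2 points (limma adjusted p 0.00207), and its RNA was 5.66 and 9.88 TPM in LPS+LA against 654 and 699 TPM in LPS. At Il6, a cytokine of the acute phase, the promoter site was at 88.2, 88.1 and 85.3 in LPS+LA, 62.3, 62.9 and 61.3 in LA, 87.6, 82.6 and 87.1 in LPS and 66.1, 67.8 and 60.3 in control. Its site did not pass the test between LPS+LA and LPS (1.46 points, adjusted p 0.681), while its RNA was 16.2 and 14.3 TPM in LPS+LA against 1184 and 1120 TPM in LPS. The Il6 site also overlaps the bounds of A230098N10Rik. Il1b, the interleukin 1 beta gene, had no shared site within 1 kb of its bounds.

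Most promoter sites of the interferon response list were higher with LPS. Of 27 listed genes with a promoter window 25 had a shared site. In LPS against control 20 of the 25 were higher and 1 was lower, against 8.68% and 19.9% of all promoter sites, with a median shift of 19.4 points, and their RNA was higher at 25 of 25 by edgeR with Benjamini-Hochberg adjustment (32.4% of all 12213 tested genes were higher and 32.4% lower). The exception was Ifit2, an antiviral RNA-binding protein. Its site was at 60.2, 63.4 and 61.0 in LPS against 77.1, 73.1 and 73.4 in control, a shift of -13.0 points (limma adjusted p 0.000391, and 0.051 on the unscaled log2 score), and its RNA log2 change was 7.10. With lactic acid present, in LPS+LA against LA, 21 of the 25 sites were called, all higher (5.79% of all promoter sites), with a median shift of 19.9 points, and RNA was higher at 24 (15.9% of all tested). In LPS+LA against LPS 3 of the 25 sites were called, all lower, which is near the 12.6% of all promoter sites that were lower there. Their RNA was lower at all 25 (29.7% of all tested), or at 24 with total-count scaling. In LA against control 1 site was higher and 6 were lower (5.94% and 11.5% of all promoter sites), and RNA was higher at 2 and lower at 7 (20.4% and 17.9% of all tested).

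Genes of NF-kB signalling mostly had strong promoter sites. Of 22 genes with a window 21 had a shared site, at a median percentile of 89.5. Of these 7 rose and 1 fell in LPS against control, against 8.68% and 19.9% of all promoter sites. RNA was higher at all 21 (32.4% of all tested genes), or at 18 with total-count scaling. Nfkbia, which encodes the inhibitor IkB alpha, was at 93.6, 94.9 and 93.9 in LPS+LA, 88.3, 88.1 and 87.7 in LA, 94.4, 93.5 and 92.1 in LPS and 88.1, 89.2 and 89.2 in control. The groups with LPS did not overlap those without it, but the rise was only 4.49 points in LPS against control (limma adjusted p 0.000407) and was not called on the unscaled log2 score. Tnfaip3, which encodes the ubiquitin-editing enzyme A20, shifted by -2.68 points (adjusted p 0.0742), with an RNA log2 change of 6.58. At Socs3, a cytokine signalling inhibitor, the site rose by 9.31 points in LPS against control and by 7.36 points in LA against control. Irf7, a factor of the interferon response, rose by 39.3 points in LPS against control and by 25.4 points in LPS+LA against LA. Over the 12 genes of the LPS panel with a shared promoter site 7 rose and 1 fell in LPS against control (8.68% and 19.9% of all promoter sites), with a median shift of 6.90 points. Their RNA was higher at all 12 (32.4% of all tested genes).

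The 4 largest promoter falls without overlap were at Gpnmb, Radx, Pmp22 and Dnase1l1 in LPS against control and at Il21r, Lyl1, Aatk and Cx3cr1 in LPS+LA against LA. At Gpnmb, a lysosomal membrane glycoprotein (chr6:49036220-49037241), the percentile was 28.1, 12.3 and 32.9 in LPS+LA, 46.4, 44.0 and 43.0 in LA, 6.66, 18.6 and 22.7 in LPS and 73.3, 74.4 and 78.1 in control. The shift was -59.2 points in LPS against control (limma adjusted p 3.55e-11) and -20.0 points in LPS+LA against LA (0.00178). Gpnmb RNA did not show a matching fall: its log2 change in LPS against control was 0.16 by edgeR with TMM scaling and -0.56 with total-count scaling. Radx, a single-stranded DNA binding protein, fell by 51.8 points and Pmp22, a membrane protein of myelin, fell by 51.0 points in LPS against control. Dnase1l1, a DNase I relative whose site also overlaps Taz, fell by 50.2 points. At Cx3cr1, the fractalkine receptor (chr9:120068089-120069060), the percentile was 48.3, 56.4 and 45.6 in LPS+LA, 82.6, 85.1 and 90.0 in LA, 56.3, 62.8 and 66.4 in LPS and 82.6, 82.1 and 83.4 in control. It fell by 35.8 points in LPS+LA against LA and by 20.8 points in LPS against control, and its RNA log2 changes were -1.36 and -1.75. Lyl1, a blood lineage transcription factor, fell by 38.9 and 35.2 points, Aatk, a kinase, by 38.3 and 31.7 points, and Il21r, the interleukin 21 receptor, by 42.0 and 26.5 points. Of the 7 promoter sites of the macrophage markers 3 were called in LPS against control, all lower (19.9% of all promoter sites). RNA of these 7 genes was higher at 4 and lower at 2 with TMM (32.4% of all tested genes in each direction). With total-count scaling it was higher at 2 and lower at 5, where 1761 of all 12213 tested genes were higher and 8289 lower. Lyz2, the lysozyme of macrophages, was at a mean of 60.2 ± 1.99 in LPS+LA, 76.2 ± 1.56 in LA, 64.7 ± 2.05 in LPS and 82.8 ± 0.818 in control (SD, n = 3 each).

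Another set of promoters was higher in the samples with lactic acid, with or without LPS. The lane cannot be told apart from lactic acid in these contrasts. At Kcnn4, a calcium-activated potassium channel (chr7:24369724-24370455), the percentile was 84.7, 79.4 and 79.9 in LPS+LA, 89.4, 89.4 and 83.4 in LA, 25.7, 40.2 and 37.2 in LPS and 53.4, 48.5 and 50.9 in control. The rise was 47.0 points in LPS+LA against LPS (limma adjusted p 2.81e-11) and 36.5 points in LA against control (8.09e-10), and its RNA log2 changes were 0.67 and 0.72. Nr4a1, an early response nuclear receptor (chr15:101266424-101267037), was at 87.3, 82.4 and 89.9 in LPS+LA, 91.0, 89.2 and 85.5 in LA, 54.0, 60.7 and 67.6 in LPS and 72.9, 70.3 and 66.7 in control. All 6 samples with lactic acid stood above all 6 without it. Nr4a1 RNA was 57.5 and 65.4 TPM in LPS+LA, 156 and 133 TPM in LA, 1.17 and 0.93 TPM in LPS and 3.31 and 3.23 TPM in control. Gja1, the gap junction protein connexin 43 (chr10:56377008-56377607, letters above), was at 57.3, 47.1 and 46.6 in LPS+LA, 51.6, 54.4 and 40.6 in LA, 8.68, 26.0 and 19.4 in LPS and 23.4, 12.9 and 15.6 in control. It rose by 32.3 points in LPS+LA against LPS and by 31.6 points in LA against control. Gcnt1, an enzyme that branches O-linked glycans, rose by 28.1 and 36.0 points. Alkbh3os1, an antisense gene, rose by 36.0 points in LA against control and shifted by 4.60 points in LPS+LA against LPS (limma adjusted p 0.292). Ctla2a, an inhibitor of cathepsins (letters above), was at 80.1, 81.2 and 79.99 in LPS+LA, 92.9, 94.2 and 92.3 in LA, 42.2, 31.5 and 26.0 in LPS and 66.3, 63.2 and 62.2 in control. Its rise was 47.2 points in LPS+LA against LPS and 29.3 points in LA against control.

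Early response genes with strong RNA changes did not all shift. Of 8 with a promoter window 7 had a shared site, and 3 of them rose in LPS+LA against LPS (8.51% of all promoter sites) while RNA was higher at 6 and lower at 1 (29.2% of all tested genes were higher). The gene with lower RNA was Junb, an AP-1 subunit, at a log2 change of -0.23 that was 0.17 with total-count scaling. Fosb, another AP-1 subunit, was at a mean percentile of 67.8 ± 2.27 in LPS+LA, 70.7 ± 3.96 in LA, 70.0 ± 4.45 in LPS and 64.0 ± 1.43 in control (SD, n = 3 each). Its groups overlapped in LPS+LA against LPS, with a shift of -2.20 points (limma adjusted p 0.599), while its RNA log2 change there was 7.31. At Dusp1, a MAP kinase phosphatase, the site means lay between 69.5 and 72.9 in the 4 groups and no shift was called, with RNA log2 changes of 1.04 in LPS+LA against LPS and 3.86 in LPS against control. Txnip, an inhibitor of glucose uptake, stayed at 94.0 to 97.6 in all 12 samples, shifted by 2.73 points in LPS against control (limma adjusted p 0.00391) and had an RNA log2 change of 1.94 in LPS+LA against LPS. Of 12 AP-1 subunit genes with a window 10 had a shared promoter site, of which 3 rose and 1 fell in LPS+LA against LPS (8.51% and 12.6% of all promoter sites).

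Falls with lactic acid were fewer beyond 30 points. At Heg1, a junction protein of endothelial cells (chr16:33683519-33684976, letters above), the percentile was 16.4, 15.8 and 12.5 in LPS+LA, 7.24, 9.51 and 12.1 in LA, 58.6, 49.6 and 49.0 in LPS and 0.574, 4.08 and 6.86 in control. Only the 3 LPS samples were high. The shift was -37.5 points in LPS+LA against LPS (limma adjusted p 2.36e-07), and Heg1 RNA was 0.27 and 0.18 TPM in LPS+LA against 2.28 and 2.63 TPM in LPS. Fyb, a signalling adaptor of blood cells, fell by 39.6 points, with an RNA log2 change of -1.12. Pilrb1, an activating immunoglobulin-like receptor, fell by 34.9 points in LPS+LA against LPS and by 28.5 points in LA against control. Klrb1c, a lectin-like receptor known from natural killer cells, fell by 33.7 points in LPS+LA against LPS. In LA against control Ccl6, a CC chemokine (chr11:83592821-83593281), was lower, at 24.8, 30.0 and 30.0 in LA against 69.0, 63.2 and 67.9 in control. Ccl6 was lower still in LPS+LA, at 3.93, 3.20 and 1.37, and in LPS it was 30.3, 29.9 and 28.6. Its RNA log2 changes were 0.20 in LA against control (edgeR adjusted p 0.115) and -0.01 in LPS against control (0.914). Mindy1, a deubiquitinase whose site also overlaps Prune1, fell by 34.2 points in LA against control. Rph3a and Pdyn, known from synapses and as an opioid precursor, fell by 33.9 and 32.3 points. At Rph3a the LA samples were spread widely, at 15.7, 38.2 and 6.96.

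**Figure D4:**
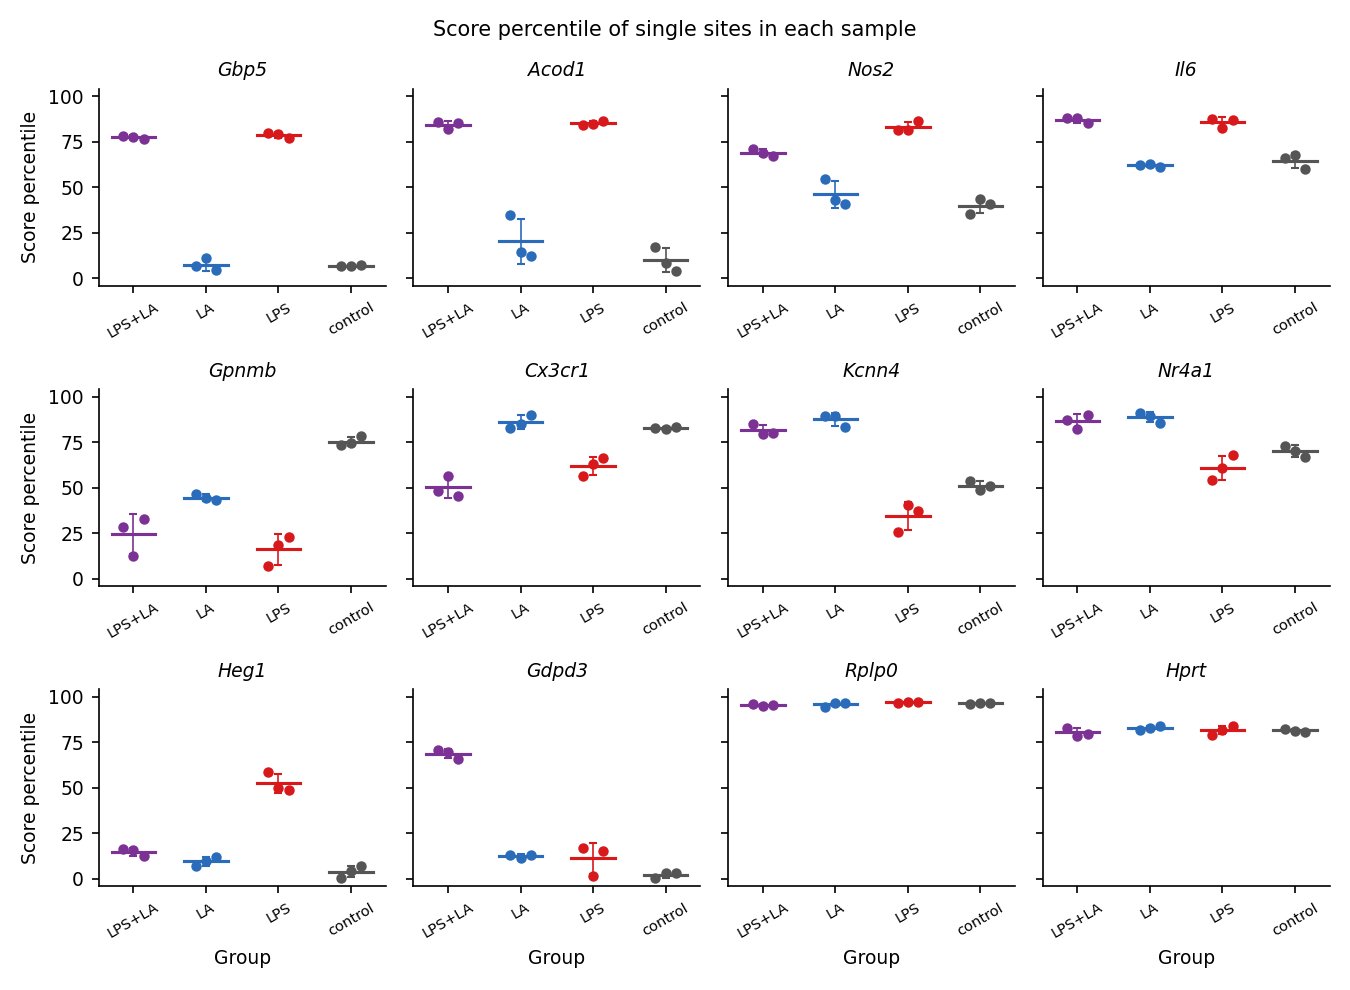
Score percentile of 12 sites in each ATAC-seq sample, by group; points are samples, lines are group means and bars are SDs (n = 3). Gbp5 and Acod1 are high only with LPS, Kcnn4 and Nr4a1 are higher with LA, Heg1 is high only in LPS and Gdpd3 only in LPS+LA, while Rplp0 and Hprt stay level.

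Samples of a group ranked the sites alike. The correlation of percentiles across the 56120 sites, given as a description since sites are not replicates, was 0.967 to 0.979 over the 12 pairs within groups. Between groups, over 9 pairs each, it was 0.909 to 0.924 for LPS+LA with LPS and 0.891 to 0.899 for LPS+LA with LA. It was 0.894 to 0.909 for LA with control, 0.809 to 0.821 for LPS with control and 0.786 to 0.800 for LPS+LA with control. The first principal component, with 54.2% of the variance, set the LPS and LPS+LA samples apart from the LA and control samples. The second, with 23.1%, set the LPS+LA and LA samples apart from the LPS and control samples. That split is both the split by lactic acid and the split by lane, which cannot be told apart.

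The shift with LPS was compared between cells with and without lactic acid in contrasts that share no sample. LPS+LA against LA and LPS against control had a correlation of 0.766 over sites. Of the 8748 sites that were higher in LPS+LA against LA 76.8% were also higher in LPS against control, which was 54.4% of the 12347 there. Of the 10098 lower sites 73.0% were lower in both, which was 49.98% of the 14739. Opposite calls were few, at 143 and 185 sites. Over all shared sites 22.0% were higher and 26.3% lower in LPS against control. The shift with lactic acid was less alike: LPS+LA against LPS and LA against control had a correlation of 0.507, and 49.5% of the 8413 higher sites and 39.2% of the 8258 lower sites were called in the same direction in LA against control. Opposite calls numbered 285 and 340, and over all shared sites 16.3% were higher and 16.2% lower in LA against control. Each member of such a pair has its own lane layout, and both contrasts for lactic acid carry the same difference between lanes.

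**Figure D5:**
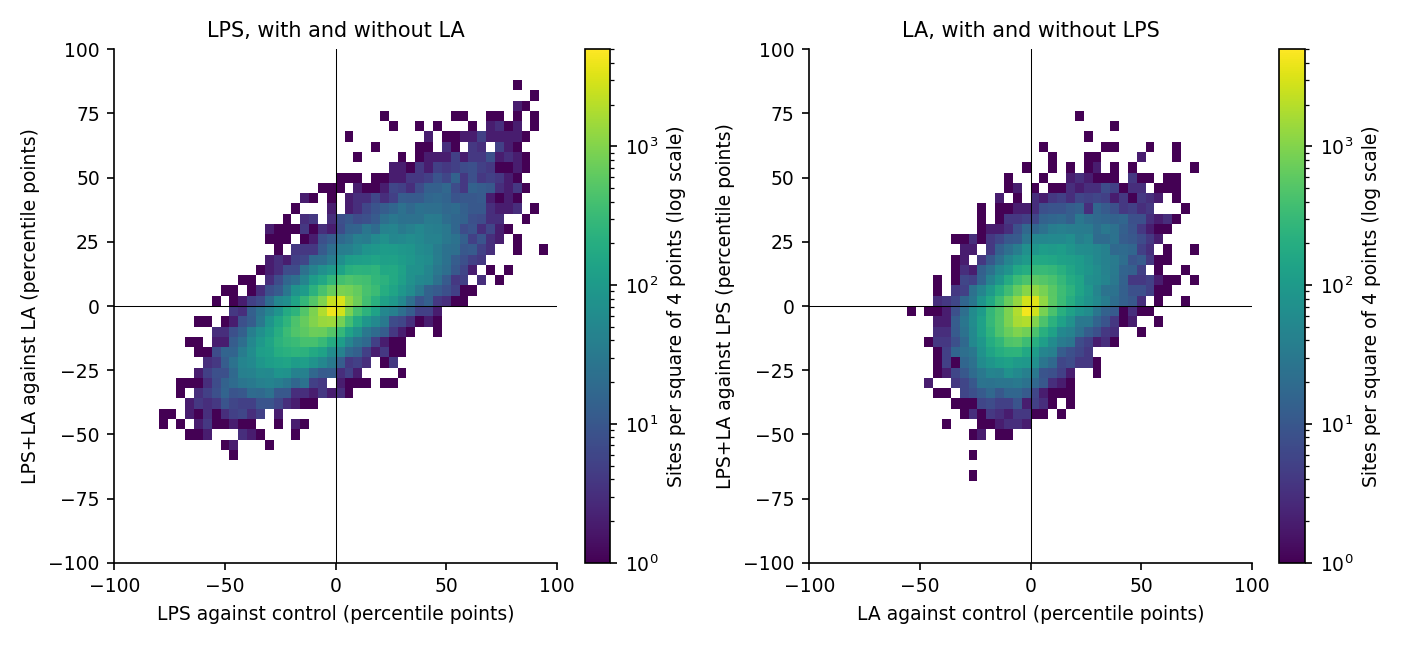
Shifts in percentile points of the 56120 sites, as the number of sites per square of 4 by 4 points (log colour scale). Left, LPS+LA against LA over LPS against control (correlation 0.766); right, LPS+LA against LPS over LA against control (correlation 0.507).

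The difference of the lactic acid shift between cells with and without LPS was tested as an interaction. It was called at 8428 sites (15.0%), 3833 positive (6.83%) and 4595 negative (8.19%), and a difference between lanes that adds equally to both contrasts cancels in it. On the unscaled log2 score it was called at 2048 sites, 1772 positive and 276 negative. At sites with a positive interaction the group medians were 52.2 in LPS+LA, 52.3 in LA, 38.2 in LPS and 61.5 in control. At sites with a negative one they were 66.0 in LPS+LA, 58.4 in LA, 69.7 in LPS and 38.3 in control. The LPS and control medians thus stood farther apart than the LPS+LA and LA medians in both sets. Gdpd3, an enzyme of lysophospholipid breakdown (chr7:126765668-126766263, a site that also overlaps Mapk3), was at 70.6, 69.5 and 66.1 in LPS+LA, 12.8, 11.3 and 13.0 in LA, 17.1, 1.36 and 15.1 in LPS and 0.157, 3.28 and 3.07 in control. Only the LPS+LA samples were high there, with an interaction of 47.3 points (limma adjusted p 9.93e-06). Its RNA was 3.47 and 0.78 TPM in LPS+LA, 3.83 and 5.32 TPM in LA, 0.19 and 0.30 TPM in LPS and 1.93 and 1.28 TPM in control. The RNA rise in LPS+LA against LPS, at a log2 change of 2.79 (edgeR adjusted p 0.00918), was 1.34 without LPS+LA library 1 (adjusted p 0.31) and 2.54 without LPS library 1 (0.076). At Rarg, a retinoic acid receptor, the interaction was 30.8 points, and the site was lower in LPS, at 49.6, 53.6 and 42.0, than in any other group (75.2 to 88.6).

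RNA was more often higher at genes whose promoter site rose by 10 points or more than over all genes with a shared promoter site. RNA was compared by edgeR with Benjamini-Hochberg adjustment over 12213 tested genes, of which 58.9% were called in LPS+LA against LPS, 30.5% in LPS+LA against LA, 64.8% in LPS against control, 38.3% in LA against control and 44.3% in the interaction. Of the genes tested 8752 had a shared promoter site. A called promoter rise of 10 points or more was seen at 259 genes in LPS against control. Their median RNA log2 change was 2.59, against -0.04 over all 8752, with 82.2% higher and 5.79% lower in RNA against 33.2% and 34.0% of all. The 696 genes with a promoter fall of that size had a median of -0.40, with 20.8% higher and 45.7% lower. In LPS+LA against LA the 206 genes with such a rise had a median of 1.09 and 61.7% were higher in RNA, against 15.95% of all 8752. The 361 genes with such a fall there had a median of -0.04, with 18.6% higher and 24.1% lower, against 15.95% and 16.1% of all. In LPS+LA against LPS a rise of 10 points or more came with a median of 0.39 (269 genes, 47.6% higher and 14.5% lower) and a fall with -0.35 (316 genes, 19.6% higher and 47.8% lower), against 31.0% in each direction of all 8752. In LA against control the median was 0.27 for 132 genes with a rise and -0.18 for 277 genes with a fall. Total-count scaling moved the median of all tested genes to 0.43 in LPS+LA against LPS, -0.22 in LPS+LA against LA, -0.77 in LPS against control and -0.10 in LA against control. Under it the medians for rises and falls of 10 points or more were 0.79 and 0.03 in LPS+LA against LPS and 1.87 and -1.11 in LPS against control. Without the 2 libraries with raised neuron and fibroblast markers the median for rises of that size in LPS against control was 2.49.

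Letters of promoters whose site shifted differed by treatment. ISRE letters stood, in LPS against control, in 15.5% of windows with a risen site, 5.22% with a fallen site and 6.48% with no call. These shares were 19.5%, 5.70% and 6.37% in LPS+LA against LA. They were turned round in the contrasts for lactic acid: 4.28% with a risen site and 9.61% with a fallen site in LPS+LA against LPS, and 4.72% and 10.5% in LA against control. NF-kB letters stood in 3.56% of risen, 0.944% of fallen and 1.10% of other windows in LPS against control, and in 4.92%, 0.889% and 1.09% in LPS+LA against LA. AP-1 letters were more frequent at risen sites in all 4 comparisons: 9.50% in LPS+LA against LPS, 13.3% in LPS+LA against LA, 10.8% in LPS against control and 13.6% in LA against control, against 3.89% to 4.17% of windows with no call. The comparisons share samples, so these are not independent counts. Risen windows in LPS+LA against LA also had fewer CpG dinucleotides, 12 against 22 where no shift was called. CCAAT letters stood in 27.3% of risen windows in LA against control and in 39.2% with no call.

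Promoter sites of 4 gene lists of basic cell functions were counted beside all promoter sites, of which 21.1% were called in LPS+LA against LPS, 18.9% in LPS+LA against LA, 28.6% in LPS against control and 17.4% in LA against control. Of 63 cytosolic ribosomal protein genes with a window 59 had a shared site, and the others were Rpl10l, Rpl32l, Rpl39l and Rpl3l. Of the 59 sites 4 rose and 5 fell in LPS+LA against LPS, 1 rose and 1 fell in LPS against control and 6 rose and 3 fell in LA against control, while in LPS+LA against LA no site was called. Their RNA in LPS against control depended on the scaling, being higher at 49 of 59 with TMM and lower at 56 of 59 with total-count scaling. Of all 12213 tested genes 32.4% were higher there with TMM, and 8289 were lower with total-count scaling. Of 77 oxidative phosphorylation genes 73 had a shared site, of which 1 rose and 6 fell in LPS+LA against LPS, 2 rose and 1 fell in LPS+LA against LA, 6 rose and 4 fell in LPS against control and 2 rose and 3 fell in LA against control. Of 33 proteasome genes 32 had one, with 2 risen and 4 fallen in LPS+LA against LPS, 1 and 1 in LPS+LA against LA, 5 and 2 in LPS against control and 4 and 1 in LA against control. All 22 cell cycle genes with a window had a shared site at a median percentile of 91.5. Of these 22 sites 4 were called in LPS against control, all lower. RNA of these genes was lower at 20 of 22 (32.4% of all tested genes), and at 22 with total-count scaling. Of the same sites 1 rose and 2 fell in LPS+LA against LPS, with RNA higher at 18 of 22 (29.2% of all tested genes). The other calls were 2 in LPS+LA against LA and 3 in LA against control, all lower.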

How the data were processed

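ATAC-seq peaks were deposited by the authors as a list per sample with a score per peak. Per the submitters' processing notes, BWA 0.5.9, Picard and MACS2 2.0.10 were used with mm10 (GRCm38); the score's exact quantity and any shift of reads for the transposase are not given in the sources used here. For RNA the authors deposited expected counts and TPM values. The same notes name HISAT, Bowtie2 and GRCm38.p6. Deposited FPKM values and group means were not used (10 and 15 columns).

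Peaks sharing at least 1 bp were merged (Python 3.11.15). The best score per site was ranked over the 56120 shared sites of each sample and fitted by limma 3.58.1 (trend, robust) to 12 samples in 4 groups. Expected counts, of which 6.07% were not whole, were rounded, filtered by filterByExpr (minimum count 10), scaled by TMM (0.759 to 1.27) and tested by edgeR 4.0.16 quasi-likelihood over 10 libraries; totals ran from 18668648 to 20219888. DESeq2 1.42.0, other scalings, filters and left-out samples were alternatives. Of these 1, without 2 libraries with raised neuron and fibroblast markers, was added after seeing the data. Steps were tested on simulated data.

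Sites named are the 4 largest promoter rises and falls per comparison with no overlap, the 8 strongest promoter sites, the 3 widest sites and a panel of genes. Where the promoter table has no entry for a gene, its strongest shared site within 1 kb of the gene bounds was used. Site members, lists and panel were chosen with earlier results of these data known.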

Additional observations from a re-analysis of the deposited data

Results flagged for a closer look

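The effect of lactic acid differed between cells with and without LPS at 8428 sites by limma's interaction term, and at 5409 of 12213 tested genes in RNA by edgeR's, both with Benjamini-Hochberg adjustment. Among the promoter sites named above the difference was positive, in percentile points, at Gdpd3 (47.3), Gpnmb (39.2), Rarg (30.8), Dnase1l1 (29.0), Rph3a (26.6), Mindy1 (22.6), Pdyn (21.3), Radx (19.1), Pmp22 (19.0) and Ctla2a (18.0). It was negative at Heg1 (-43.2), Alkbh3os1 (-31.4), Fyb (-22.1), Klrb1c (-18.9), Il21r (-15.5) and Cx3cr1 (-15.0). At Alkbh3os1, an antisense gene, the site stood at 85.6, 89.6 and 86.4 in LPS+LA, 65.4, 58.4 and 56.9 in LA, 79.2, 83.1 and 85.5 in LPS and 30.6, 21.8 and 20.3 in control. At Gpnmb the site was lower in LA than in control and the difference between LPS+LA and LPS did not pass the test (8.40 points, limma adjusted p 0.205). Lanes differ in both lactic acid contrasts, and whether a lane difference was the same in both was not tested.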

How the results depend on the processing

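The log2 score with no scaling between samples, which keeps differences in overall score, called 4661 sites in LPS+LA against LPS, 10464 in LPS+LA against LA, 15825 in LPS against control and 2048 in the interaction; the cause was not tested. In LA against control it called 17052. Under the other alternatives each count of called sites stayed within 1.5 times the main count, from 13706 to 17075 in LPS+LA against LPS, 15747 to 19097 in LPS+LA against LA, 22131 to 27550 in LPS against control, 15114 to 18568 in LA against control and 6959 to 8430 in the interaction. Median width was 457 bp for the best peak, 646 bp without the lowest 20% of peaks, 578 bp for a peak in at least 2 of 3 samples per group, and 603 to 608 bp leaving out samples. The promoter share was 53.5% with at least 100 bp of overlap, 52.0% without the lowest peaks, 55.3% for 2 of 3 samples and 54.1% to 54.3% leaving out samples.

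Over all called promoter shifts of any size, the main median RNA log2 changes were 0.26 for risen and -0.16 for fallen sites in LPS+LA against LPS. They were 0.48 and -0.02 in LPS+LA against LA, 0.87 and -0.29 in LPS against control and 0.19 and -0.07 in LA against control. With total-count scaling they were 0.66 and 0.24 in LPS+LA against LPS, reversed for fallen sites, and 0.27 and -0.23 in LPS+LA against LA. Under that scaling they were 0.15 and -1.01 in LPS against control and 0.083 and -0.18 in LA against control. Over sites in gene bounds the medians for risen sites were 0.28 in LPS+LA against LA, 0.44 in LPS against control and 0.081 in LA against control. The same scaling reversed RNA of Gpnmb (-0.56), Cd68 (-0.53) and Itgam (-0.45) in LPS against control and Junb (0.17) in LPS+LA against LPS, and the unscaled score reversed the Crem site in LA against control (-0.20). Of 1300 values for named sites 1253 kept direction and call, as did 1369 of 1392 for named RNA changes. These values repeat 67 site results and 87 RNA results over the settings. Of the 67 site results 18 lost their call in some setting, 8 of them on leaving out 1 sample. Of the 87 RNA results 7 lost their call in some setting and 4 reversed.

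Replicate numbers did not pair the samples (correlation of deviations -0.0909 to 0.0659, median 0.0052). With the replicate block 16540, 18733, 27019, 18106 and 8243 sites were called in the order LPS+LA against LPS, LPS+LA against LA, LPS against control, LA against control and the interaction, and 7141, 3687, 7849, 4663 and 5380 genes.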
